A study of Homo sapiens with 6 samples.

Results

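The miRNA family of miR-148a, miR-148b and miR-152 was followed through small RNA libraries of 2 human lung epithelial lines given TGF-β1. Its 5 members were chosen by name among the 2588 mature miRNAs counted, and comprise hsa-miR-148a-3p, hsa-miR-148a-5p, hsa-miR-148b-3p, hsa-miR-148b-5p and hsa-miR-152-3p. A549 is a lung carcinoma epithelial line and BEAS-2B is an immortalized bronchial epithelial line, and both were labeled wild type. Each line was left without TGF-β1 or received it at 1 or 5 ng/mL for 48 h, the treated cells in medium with reduced serum. The labels do not say whether the untreated cells were in that medium. Differences between treated and untreated cells may therefore mix TGF-β1 and serum, which cannot be told apart here. There were 6 groups with 1 library each, so no value has a replicate error. No test of treatment was run, and a fit that takes the lines as blocks was not tried. Only miRNAs were counted, so the identity of the lines was not checked against mRNA markers.

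A miRNA hairpin is cut into a duplex, and the strand kept in the Argonaute protein is named 3p or 5p after the arm it came from. Bases 2 to 8 of that strand, the seed, pair with sites in target mRNAs, mostly in 3′ untranslated regions, and lower their translation and stability. The family is known for targeting DNA methyltransferases, the enzymes that place methyl groups on cytosine. TGF-β1 is a cytokine that drives fibrosis and moves epithelial cells toward a mesenchymal state.

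The mature sequences are shown because the 3p members differ from each other at few bases and share a seed, and they were taken from RefSeq (GRCh38.p14), where 4 of the 5 members were matched. Each is written 5′ to 3′ with its seed in capitals.
hsa-miR-148a-3p: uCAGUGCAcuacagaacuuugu
hsa-miR-148b-3p: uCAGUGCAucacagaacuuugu
hsa-miR-152-3p: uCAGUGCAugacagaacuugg
hsa-miR-148b-5p: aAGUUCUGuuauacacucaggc
The seed CAGUGCA was carried by 3 of the 2370 mature miRNAs in the reference table, and these were the 3p members. Counted from 1 at the 5′ end, miR-148a-3p and miR-148b-3p differed by C9U and U10C, with 20 of 22 bases identical. Between miR-148a-3p and miR-152-3p the substitutions were C9U, U10G and U20G. Between miR-148b-3p and miR-152-3p they were C10G and U20G. How reads that fit more than 1 of these sequences were assigned is not given in the sources used here, so values of the 3 are uncertain to that extent.

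The hairpins are shown with their annotated mature strands in capitals, to place the arms.
MIR148A: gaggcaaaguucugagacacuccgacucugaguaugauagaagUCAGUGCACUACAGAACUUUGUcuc
MIR148B: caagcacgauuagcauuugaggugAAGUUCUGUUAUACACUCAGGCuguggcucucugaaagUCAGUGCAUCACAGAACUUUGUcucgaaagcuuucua
MIR152: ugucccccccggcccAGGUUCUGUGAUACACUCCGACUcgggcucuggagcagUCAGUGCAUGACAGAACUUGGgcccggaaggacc
On GRCh38.p14, MIR148A lies at chr7:25949919-25949986 on the minus strand, in no annotated gene. MIR148B lies at chr12:54337216-54337314 and is read from the plus strand, within a COPZ1 intron. MIR152 lies at chr17:48037161-48037247 and is read from the minus strand, within a COPZ2 intron. COPZ1 and COPZ2 encode related subunits of the COPI vesicle coat, and each hairpin is on the strand of its host gene.

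Library totals ranged from 633318 to 900424 reads, and a single abundant miRNA, hsa-miR-21-5p, took between 35.4% (the untreated BEAS-2B library) and 57.2% of them. Counts were therefore scaled by the trimmed mean of M-values (TMM), which sets libraries level on the bulk of their miRNAs, and given as normalized counts. The TMM factor of the untreated BEAS-2B library was 1.32, against 0.829 to 1.02 in the other 5. The normalized data value (ND) is log2(normalized count + 1). A difference was called, after the thresholds of the study, when it was at least 1.4-fold and the greater ND of the pair was at least 8, a normalized count of 255. Each interval is a 95% interval from exact binomial shares of the counts or, where stated, an approximation on the log scale. All intervals cover counting error only, as each group had 1 library. Molecular identifiers are not mentioned for these libraries, so copies of the same molecule may be counted as separate reads, and the intervals may be too narrow.

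The 3 family 3p strands together made up 0.331%, 0.232% and 0.265% of the A549 reads at 0, 1 and 5 ng/mL, and 0.270%, 0.273% and 0.277% of the BEAS-2B reads. The main contrasts within these totals were a lower miR-148b-3p in treated A549 cells, a higher miR-148a-3p in treated BEAS-2B cells, and opposite dominant members in the 2 lines.

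miR-148a-3p, the major strand of MIR148A, had normalized counts of 961, 969 and 1072 in A549 cells at 0, 1 and 5 ng/mL, from 924, 965 and 921 reads. In BEAS-2B cells it had 150, 469 and 416, from 195, 405 and 424 reads. The untreated BEAS-2B library was the lowest of all 6, and every A549 library was above every BEAS-2B library.

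miR-148b-3p had normalized counts of 1561, 956 and 680 in A549 cells, from 1500, 952 and 584 reads. In BEAS-2B cells the values were 508, 630 and 613, from 661, 544 and 625 reads. The untreated A549 library was the highest, and the A549 value was lower at each higher dose.

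miR-152-3p had normalized counts of 194, 170 and 205 in A549 cells, from 186, 169 and 176 reads. In BEAS-2B cells they were 867, 976 and 1055, from 1127, 843 and 1076 reads. All 3 BEAS-2B libraries were above all 3 A549 libraries, and the A549 values stayed below the ND threshold.

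**Figure D1:**
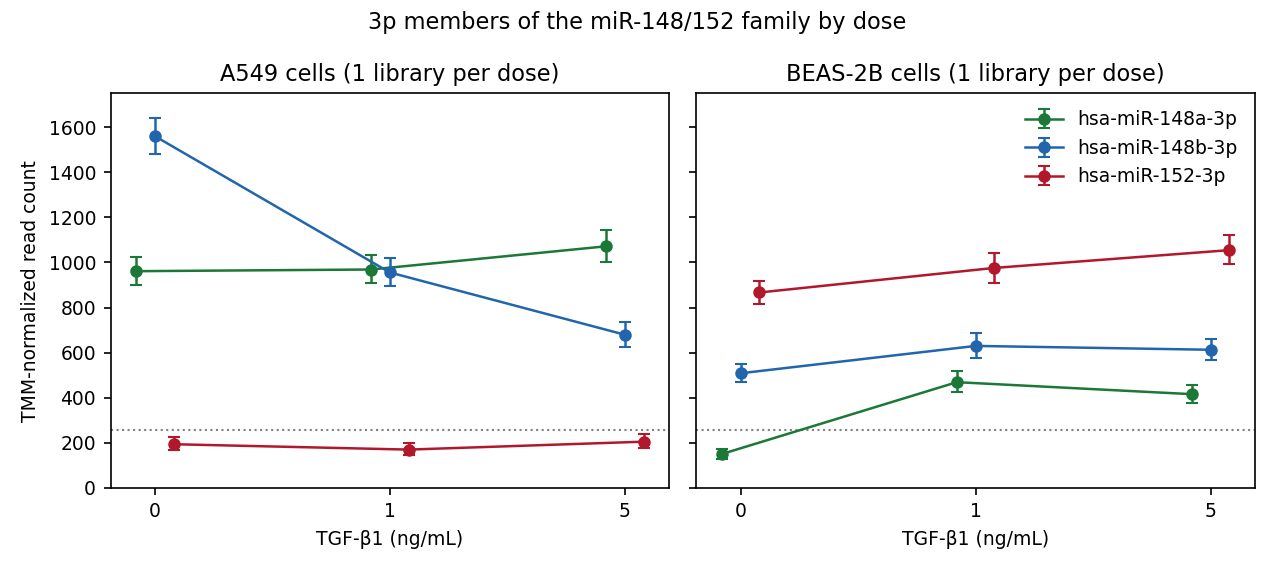
Normalized counts of the 3p members (linear axis from 0) by TGF-β1 dose in ng/mL (evenly spaced) in A549 and BEAS-2B cells, with 1 library per point, exact Poisson 95% bars and a dotted line at 255, the ND threshold. Lines join the doses of a member, and miR-152-3p lies between 170 and 205 in A549 cells and between 867 and 1055 in BEAS-2B cells.

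The first comparison asked how each member differed between treated and untreated cells of 1 line. In A549 cells miR-148b-3p was lower after treatment. Its log2 ratio at 1 ng/mL was -0.71, with a 95% interval from -0.83 to -0.59. At 5 ng/mL the log2 ratio was -1.20 (-1.34 to -1.06), or 56.4% lower. It was the single member called at either dose, of 2 that met the ND threshold. Among all miRNAs that met the threshold, the called share was 48.9% for the lower dose and 53.2% for the higher, so a call was common in this line. The median log2 ratio of all of them was -0.11 and -0.03. In bulk RNA, fewer cells with a miRNA and less of it per cell cannot be told apart.

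The log2 ratio of miR-148a-3p in A549 cells was 0.01 (-0.12 to 0.14) for the lower dose and 0.16 (0.02 to 0.29) for the higher, neither of them called. That of miR-152-3p was -0.19 (-0.50 to 0.12) and 0.08 (-0.22 to 0.39), with both intervals including 0. Between the doses, 5 against 1 ng/mL, miR-148b-3p was called lower at -0.49 (-0.64 to -0.34), in a comparison that called 16.9% of all miRNAs. Its interval reached inside 1.4-fold, and scaling by total count put it at -0.20, below the fold threshold.

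In BEAS-2B cells miR-148a-3p was the member called, and it was higher. Its log2 ratio was 1.64 (1.39 to 1.90), or 3.11-fold, at 1 ng/mL, and 1.46 (1.22 to 1.72), or 2.76-fold, at 5 ng/mL. All 3 of the 3p members met the ND threshold, and the share of all miRNAs called was 29.2% for the lower dose and 36% for the higher. The untreated value had an ND of 7.24, so the call rests on the treated libraries reaching the threshold.

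The log2 ratio of miR-148b-3p in BEAS-2B cells was 0.31 (0.14 to 0.47) for the lower dose and 0.27 (0.11 to 0.43) for the higher. That of miR-152-3p was 0.17 (0.04 to 0.30) and 0.28 (0.16 to 0.40). None of these 4 ratios was called, and with total-count scaling all 4 turned negative. That scaling moved the median of all miRNAs to -0.47 from -0.04 for the lower dose, and to -0.51 from -0.08 for the higher. Between the doses no member was called, against 6.61% of all miRNAs, and miR-148a-3p differed by -0.17 (-0.37 to 0.03).

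**Figure D2:**
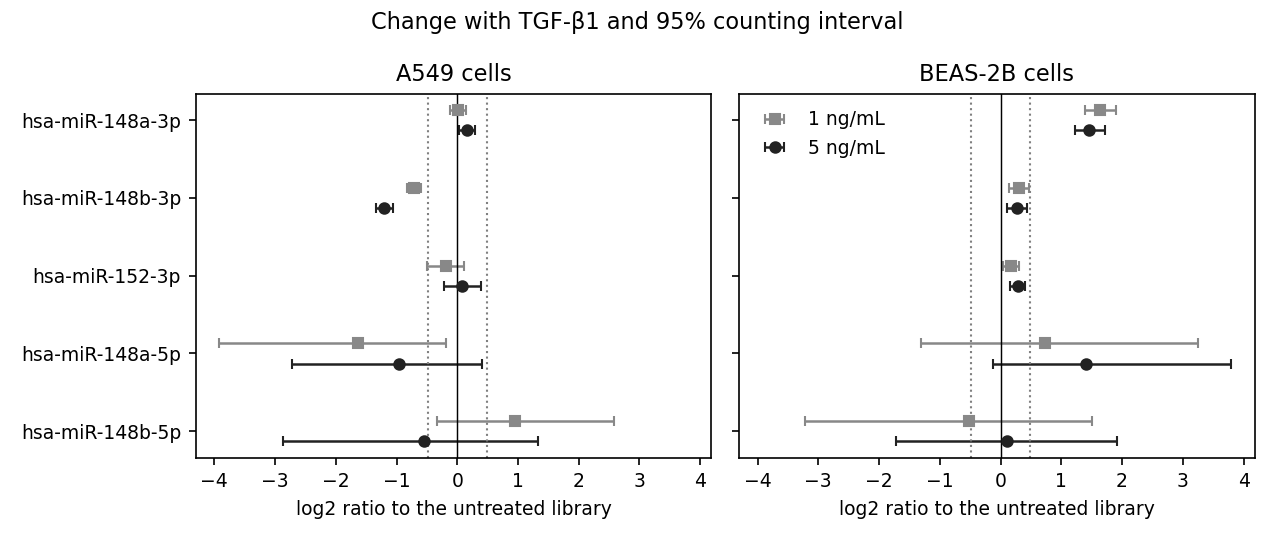
Log2 ratio of each member to the untreated library of its line, at 1 ng/mL (squares) and 5 ng/mL (circles), with 95% counting intervals and dotted lines at 1.4-fold. miR-148b-3p in A549 cells (-1.20 at 5 ng/mL) and miR-148a-3p in BEAS-2B cells (1.46) lie beyond the lines, and the 5p members have wide intervals.

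Because the members were read in the same library, the ratio of 2 members does not depend on the scaling. The ratio of miR-148a-3p to miR-148b-3p reads was 0.616, 1.01 and 1.58 in A549 cells at 0, 1 and 5 ng/mL. The BEAS-2B ratios were 0.295, 0.744 and 0.678. At 5 ng/mL the ratio was 2.56-fold that of untreated A549 cells (approximate interval 2.24 to 2.92) and 2.30-fold that of untreated BEAS-2B cells (1.88 to 2.81). It was higher in treated than in untreated cells of both lines.

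Relative to miR-152-3p, miR-148b-3p changed 0.411-fold (0.328 to 0.516) in A549 cells at 5 ng/mL and 0.990-fold (0.863 to 1.14) in BEAS-2B cells. Relative to miR-152-3p, miR-148a-3p changed 1.05-fold (0.841 to 1.32) in A549 cells and 2.28-fold (1.89 to 2.75) in BEAS-2B cells. These intervals are approximate as well. The ratios show unequal change between members, not which member stayed level.

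**Figure D3:**
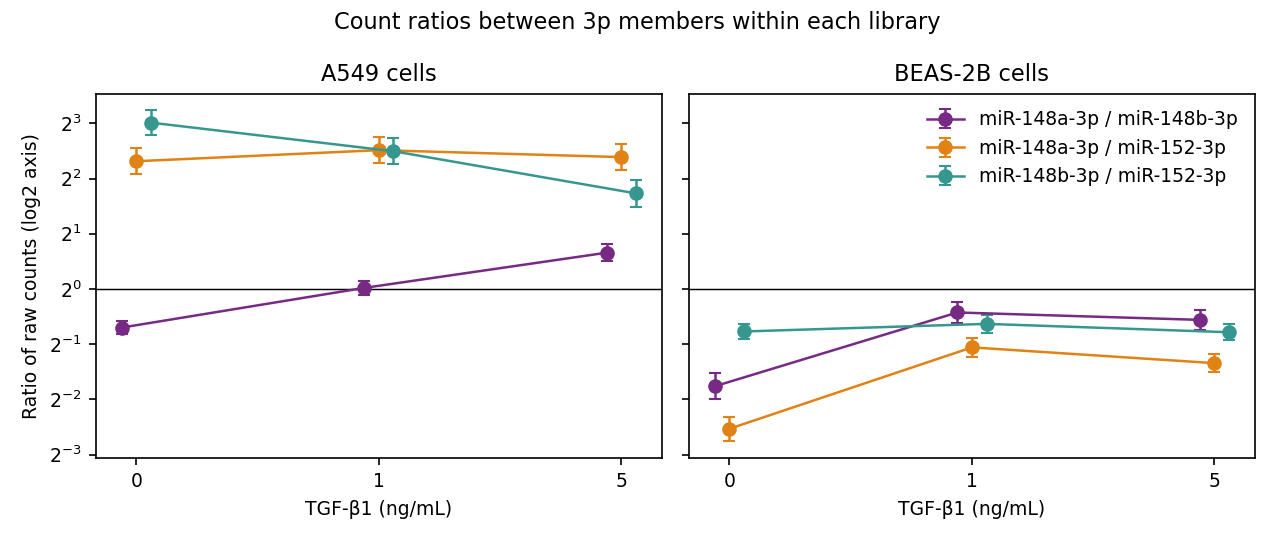
Ratios of raw read counts between 3p members (log2 axis) by TGF-β1 dose in ng/mL (evenly spaced) in each line, with 1 library per point, 95% counting intervals as bars and lines joining the doses of a pair. The ratio of miR-148a-3p to miR-148b-3p is 0.616 without TGF-β1 and 1.58 at 5 ng/mL in A549 cells, and 0.295 and 0.678 in BEAS-2B cells.

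The make-up of the family followed from these values. In A549 cells miR-148b-3p held 57.5% (55.5 to 59.4) of the family 3p reads without TGF-β1 and 34.7% (32.5 to 37.1) at 5 ng/mL. miR-148a-3p held 35.4% (33.6 to 37.3) and 54.8% (52.4 to 57.2), and so became the largest member. In BEAS-2B cells miR-152-3p was the largest member in every library, with 56.8%, 47.0% and 50.6% at 0, 1 and 5 ng/mL. The miR-148a-3p share there was 9.83% (8.56 to 11.2) without TGF-β1 and 22.6% (20.7 to 24.6) at 1 ng/mL.

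**Figure D4:**
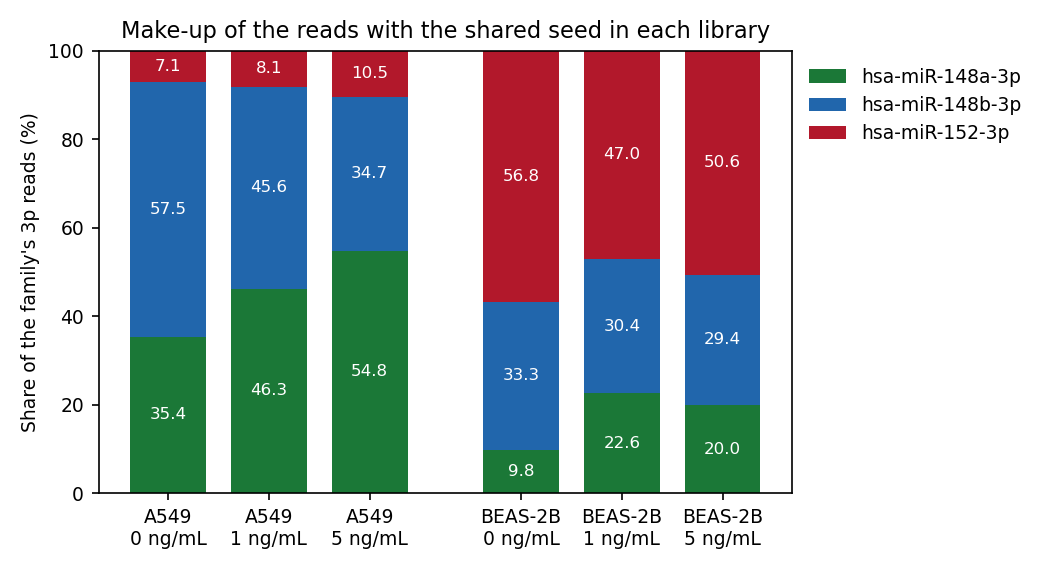
Percent of family 3p reads taken by each member, stacked to the whole, in each of the 6 libraries. miR-148b-3p takes 57.5% in untreated A549 cells and 34.7% at 5 ng/mL, and miR-152-3p is the largest in all BEAS-2B libraries.

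The summed 3p members, which share 1 seed, had normalized counts of 2716, 2094 and 1956 in A549 cells and 1525, 2075 and 2083 in BEAS-2B cells. The log2 ratio to untreated cells in A549 cells was -0.37 (-0.46 to -0.29) for the lower dose and -0.47 (-0.56 to -0.38) for the higher. The BEAS-2B ratios were 0.44 (0.35 to 0.54) and 0.45 (0.36 to 0.54), respectively. With TMM none of these ratios of the sum reached 1.4-fold, so none was called. With total-count scaling the BEAS-2B values were 0.02 and 0.04, so that the higher sum in treated BEAS-2B cells depended on the scaling.

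The next comparison set the lines side by side at each dose. Without TGF-β1, miR-148a-3p was 6.37-fold higher in A549 than in BEAS-2B cells (log2 ratio 2.67). miR-148b-3p was higher by a log2 ratio of 1.62, while miR-152-3p was lower, with a log2 ratio of -2.16. Each value was above its range over 4 other scalings. Those ranges were 2.14 to 2.62, 1.08 to 1.57 and -2.69 to -2.21, respectively. The median of all miRNAs was 0.27, and -0.43 with total-count scaling. All 3 members were called, against 68.9% of all miRNAs. miR-148a-3p met the ND threshold through the A549 library only (ND of 7.24 in BEAS-2B cells). miR-152-3p met it through the BEAS-2B library only (7.60 in A549 cells), as at the other doses. With the threshold in both libraries, miR-148b-3p alone was called here, against 61.1%, and miR-148a-3p alone at 5 ng/mL, against 53.2%. At 1 ng/mL all 3 were called again, at 1.05, 0.60 and -2.52, against 64.3%. The interval of miR-148b-3p there (0.45 to 0.76) reached inside 1.4-fold, and it was not called with total-count scaling (0.35) or with totals taken without miR-21-5p (0.47). At 5 ng/mL miR-148a-3p (1.36) and miR-152-3p (-2.36) were called and miR-148b-3p (0.15, -0.02 to 0.31) was not, against 67.8%. Its value turned to -0.11 with totals taken without miR-21-5p and to -0.10 in unscaled counts.

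The normalized counts of the 3 libraries of 1 line did not overlap those of the other for any of the 3p members. The same held for 59.2% of the miRNAs that reached an ND of 8 in any library. The narrowest gap was that of miR-148b-3p, with 680 to 1561 in A549 cells and 508 to 630 in BEAS-2B cells. The lines overlapped for it in unscaled counts (584 to 1500 and 544 to 661) and with totals taken without miR-21-5p, and for the other 3p members under none of 4 other scalings. The ratio of miR-148a-3p to miR-152-3p, free of scaling, was 28.7-fold (approximate interval 23.1 to 35.7) higher in untreated A549 than in untreated BEAS-2B cells.

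The difference between treated and untreated cells was then compared between the lines, as the A549 log2 ratio minus the BEAS-2B log2 ratio. At 5 ng/mL it was -1.47 (approximate interval -1.68 to -1.26) for miR-148b-3p and -1.31 (-1.59 to -1.03) for miR-148a-3p. For miR-152-3p it was -0.20 (-0.52 to 0.12). With total-count scaling these differences were -0.90, -0.74 and 0.37, so that the first and second were smaller and the last changed sign. The spread between cultures is not known, so these intervals do not test the difference between the lines.

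The 5p members were rare, with between 3 and 15 reads in a library, and none reached the ND threshold. The reads of miR-148a-5p at 0, 1 and 5 ng/mL numbered 14, 4 and 6 in A549 cells and 4, 5 and 10 in BEAS-2B cells. Those of miR-148b-5p were 7, 15 and 4, and 7, 3 and 6. Over the 6 libraries the 5p strand made up 1.11% (0.804 to 1.49) of the MIR148A reads and 0.856% (0.617 to 1.15) of the MIR148B reads. The 5p strand of MIR152, hsa-miR-152-5p, made up 2.16% (1.71 to 2.69) of its hairpin. These intervals pool the libraries and do not cover differences between them. For MIR148A the lowest 5p share was 0.413% (0.113 to 1.05), in A549 cells at 1 ng/mL. The highest was 2.30% (1.11 to 4.20), in BEAS-2B cells at 5 ng/mL. Of the 8 ratios of 5p members to untreated cells, 1 had an interval that excluded 0, that of miR-148a-5p in A549 cells at 1 ng/mL (-1.63, -3.92 to -0.19).

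As the family is known for DNA methyltransferases, their 3′ untranslated regions were searched on the transcript strand (GENCODE release 29, longest coding transcript). The motif was TGCACTG, the reverse complement of the seed written as DNA. DNMT1, the maintenance methyltransferase, held 1 match, at chr19:10133613-10133619 on the minus strand, shown in capitals with its flanks.
DNMT1 match: aggaatccccaacaTGCACTGatgttgtg
The region is 127 bases long, and 1.38% of 16863 untranslated regions cut to this length held the motif. DNMT3A and DNMT3B, which place new methylation, held 0 matches, where 43.9% and 13.4% of regions of their lengths held 1 or more. A match describes letters only, and neither the mRNAs nor methylation were measured.

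A list of 9 other miRNAs described as targeting DNA methyltransferases had 5 members that met the ND threshold in each comparison with untreated cells. These 5 were not the same in both lines, as miR-143-3p met it in A549 cells through the treated libraries and miR-140-5p in BEAS-2B cells through the untreated one. In A549 cells 1 was called higher at 1 ng/mL, and 1 higher and 1 lower at 5 ng/mL. These were miR-143-3p, with log2 ratios of 3.43 and 3.05, and miR-101-3p, at -0.77. In BEAS-2B cells miR-29a-3p was called lower at 1 ng/mL (-0.62), and miR-185-5p (-0.67) and miR-126-3p (-0.64) at 5 ng/mL. There miR-143-3p stayed below the ND threshold, with 7, 62 and 101 reads at 0, 1 and 5 ng/mL. Its log2 ratios in BEAS-2B cells were 3.51 (2.61 to 5.11) and 3.97 (3.11 to 5.55), so its rise was not particular to A549 cells. The called shares of all miRNAs, given above, were 48.9% and 53.2% in A549 cells and 29.2% and 36% in BEAS-2B cells. A further list of 5 miRNAs, chosen for seeds with AGUGCA, offset by a base from the family seed, had no member at the ND threshold. These were miR-130a-3p, miR-130b-3p, miR-301a-3p, miR-301b-3p and miR-454-3p, and their highest count was 288. AGUGCA was found in 4 of the 5, as the reference table held no sequence for miR-130a-3p. It also held AGUGCA at this place for miR-3666 and miR-4295, which were not on the list.

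The miRNAs with the most similar ND pattern were taken from 154 candidates by Pearson's r over the 6 libraries, a description in which all points share libraries and scaling. For miR-148a-3p they were miR-582-3p (0.95), miR-99b-3p (0.94) and miR-92a-3p (0.93). For miR-148b-3p they were miR-450b-5p (0.96), miR-27b-3p (0.94) and miR-450a-5p (0.93). For miR-152-3p they were miR-574-5p (0.999), miR-539-3p (0.99) and miR-146b-5p (0.99). Of all these similar miRNAs, only miR-450b-5p had normalized counts that overlapped between the lines. Lines that did not overlap were common, at 59.2% of miRNAs with an ND of 8 in any library. Among the members, r was 0.69 between miR-148a-3p and miR-148b-3p, -0.81 between miR-148a-3p and miR-152-3p, and -0.73 between miR-148b-3p and miR-152-3p.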

How the data were processed

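Per the labels, a small RNA kit turned total RNA into libraries, and the processing notes of the submitters name Bowtie2 and bedtools. The authors deposited unnormalized counts of reads for each mature miRNA, 1 column per library. Versions, genome build, miRNA release, strand handling and the treatment of reads that match several miRNAs are not given in the sources used here. Counts were scaled by TMM over all 6 libraries (edgeR 4.0.16, R 4.3.3) to a mean effective size of 749498, with a pseudocount of 1. Intervals of ratios, also of those between members within a library, were exact Clopper-Pearson intervals (scipy 1.17.1). Those of changes in member ratios and of line differences were approximations on the log scale. A count of 0 allows 3 reads. DESeq2 1.42.0 size factors, total-count scaling with and without miR-21-5p, TMM within a line, unscaled counts, pseudocounts of 0.5 and 10, ND thresholds of 7 and 9, no ND threshold, the threshold in both libraries and 2-fold were the alternatives. The procedure was run on simulated Poisson counts from a shared profile with set fold changes. These hold no variation between cultures, so the run cannot show how the procedure fares with it. The members and lists were chosen with earlier results of these data known. The text names the members, miR-152-5p, miRNAs of those lists or seeds, miR-21-5p and, for each 3p member, the 3 most similar miRNAs with an ND of 8 in any library.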

Additional observations from a re-analysis of the deposited data

Results flagged for a closer look

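The change of miR-148b-3p at 5 ng/mL differed between the lines, with an A549 log2 ratio of -1.20 and a BEAS-2B log2 ratio of 0.27, a difference of -1.47. It stands out because the TMM-scaled ratios had opposite signs in the 2 lines at both doses, although the BEAS-2B ratios were not called. The ratios of a line share 1 untreated library, so the doses are not separate observations of the sign. The difference was not tested, as each group had 1 library. The BEAS-2B value turned to -0.14 with total-count scaling and -0.08 in unscaled counts, the sign seen in A549 cells, and at 1 ng/mL to -0.12 and -0.28. The difference was -0.90 with total-count scaling. The untreated BEAS-2B library had the TMM factor farthest from the others (1.32); its part in the result was not tested.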

How the results depend on the processing

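Of 360 log2 ratios of the members and miR-152-5p under other scalings or pseudocounts, 316 stayed within their counting interval and 44 moved outside it. The 360 include the rare 5p strands, whose wide intervals a change of scaling could hardly exceed. While 0 called ratios changed sign, some that were not called did, such as miR-148b-3p and miR-152-3p in BEAS-2B cells with total-count scaling. miR-148b-3p in A549 cells ranged from -0.84 to -0.66 at 1 ng/mL and from -1.36 to -1.04 at 5 ng/mL over 5 other scalings. miR-148a-3p in BEAS-2B cells ranged from 1.05 to 1.68 and from 1.06 to 1.65. The summed 3p members in A549 cells came to -0.47 (DESeq2) and -0.51 (total count) at 1 ng/mL, and to -0.57 (DESeq2), -0.32 (total count) and -0.63 (unscaled) at 5 ng/mL. In BEAS-2B cells the sum came to 0.016 (total count) and -0.15 (unscaled) at 1 ng/mL, and to 0.33 (DESeq2), 0.039 (total count), 0.63 (without miR-21-5p) and 0.10 (unscaled) at 5 ng/mL.

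The number of members called, 1 in each comparison with untreated cells, was 3 without an ND threshold for both A549 doses and for the lower BEAS-2B dose, and 2 for the higher BEAS-2B dose. The shares of all miRNAs called were then 68.5% and 76.8% in A549 cells and 63.2% and 63.6% in BEAS-2B cells. In BEAS-2B cells the number of members called was 0 at both doses with an ND of 9 (29.5% and 32.5% of all miRNAs). It was also 0 there with the threshold in both libraries (23.1% and 28.7%). In A549 cells at 1 ng/mL it was 0 with 2-fold (15.3%). Between the doses in A549 cells it was 3 without an ND threshold (62.7%). It was 0 there with total-count scaling (31.7%), without miR-21-5p (17.2%) or with 2-fold (0%). Between the doses in BEAS-2B cells it was 2 without an ND threshold (58.7%). Between the lines it was 1 with the threshold in both libraries at 0 ng/mL (61.1%) and at 5 ng/mL (53.2%). At 1 ng/mL it was 2 in place of 3 with total-count scaling (66.9%) or without miR-21-5p (64.3%). It was also 2 with the threshold in both libraries (51.1%) or with 2-fold (38.5%), and 4 without an ND threshold (77.9%).

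The differences between the lines in response, and the overlap of the lines, were recomputed under other scalings chosen after the data were seen. With total-count scaling the differences were -1.34 and -0.74 for miR-148a-3p at 1 and 5 ng/mL, -0.73 and -0.90 for miR-148b-3p, and 0.37 for miR-152-3p at 5 ng/mL. In unscaled counts they were -0.99, -0.37 and 0.28 for the 3 members at 1 ng/mL. The other 34 of 42 values stayed within the counting interval.

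Leaving out a replicate would empty a group, so no such values are given. No paired analysis was possible because each group had 1 library without a replicate number. Depth limits the 5p members most, with at most 15 reads.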
